A study of Mus musculus with 14 samples.

Results

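The genes described here are 10 glucocorticoid target genes in mouse skeletal muscle, Fkbp5, Zbtb16, Tsc22d3, Klf9, Sgk1, Cdkn1a, Errfi1, Ddit4 and Hif3a with the receptor gene Nr3c1, found by symbol among the 54532 genes of the deposited table. All 10 were among the 15458 genes with enough counts to be tested. They were chosen from measured values: Fkbp5 and the glucocorticoid set for their difference between OE-WD and CT-WD, and Zbtb16 for its difference between OE-WD and OE-CTD. Values of those contrasts are therefore given as descriptions without a p-value, and nothing is read from the counts of altered members that are printed for them.

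RNA of skeletal muscle (soleus and gastrocnemius in the study's methods) from male FVB/N mice was selected with poly-T beads and sequenced in 14 libraries. EC-Myc OE mice carried a human MYC transgene under tetO together with Cdh5-tTA, a transactivator made in endothelial cells, and MYC was switched on by withdrawing a doxycycline diet at 4 to 6 weeks of age. Control (CT) littermates carried tetO-MYC without tTA, so the transgene itself was shared by all groups. For 20 weeks the mice ate either a control diet (CTD, TD.08485) or a western diet (WD, TD.88137), which gave CT-CTD (3 libraries), CT-WD (3), OE-CTD (4) and OE-WD (4), and a number after a group's name is the replicate. The transgene was not in the count table, so the genotype of a library could not be checked, and any difference in muscle RNA is that of a tissue in which MYC was driven in endothelial cells. The results text of the study gives another diet duration for the transcriptome, and its group sizes do not match the labels. The sizes would match if the names of CT-WD and OE-CTD were exchanged. The labels were kept as they stand, and every contrast between groups below depends on them. With the names exchanged, the differences given between OE-CTD and CT-CTD would be diet differences within CT, not genotype differences. Those given between OE-WD and CT-WD would be diet differences within EC-Myc OE. The diet by genotype interaction, the difference between both diet responses, keeps its values. After an exchange Fkbp5 would be higher in OE-WD than in CT-WD by 0.51 on the log2 scale, where the labels give -1.91. Zbtb16 would be higher by 1.23, where the labels give -0.53.

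Glucocorticoids enter cells and bind the glucocorticoid receptor, which is held by chaperones until the hormone binds and then acts in the nucleus as a transcription factor. Skeletal muscle is a main target tissue, where glucocorticoids promote protein breakdown, restrain growth signalling and shift fuel use from glucose to fatty acids. Many of the induced genes feed back on the pathway or on growth, and circulating glucocorticoids also rise and fall with the time of day and with stress.

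Levels are given in CPM, counts made comparable between libraries by edgeR's TMM normalization and the library totals. Where a gene is said to lead a list, or to be lowest in it, with a value in CPM, the ranking ignores gene length. Levels of different genes are otherwise compared in the authors' FPKM, which also divide by gene length. The counted reads were 24807368, 24101226 and 25054855 in CT-CTD 1 to 3 and 26518734, 21833839 and 23814408 in CT-WD 1 to 3. They were 25486678, 28519159, 22966288 and 22083340 in OE-CTD 1 to 4 and 25281275, 27115249, 22033140 and 27698046 in OE-WD 1 to 4. Mean FPKM over the 14 libraries was 88.6 for Tsc22d3, 70.8 for Sgk1, 58.5 for Klf9 and 46.3 for Ddit4. It was 18.7 for Zbtb16, 17.3 for Errfi1, 11.6 for Nr3c1, 8.07 for Cdkn1a, 6.55 for Fkbp5 and 0.354 for Hif3a. Hif3a was thus the least abundant, with 18 to 101 counts per library. In CT-CTD, Tsc22d3 (91.2 ± 10.8 FPKM, SD, n = 3) and Sgk1 (78.5 ± 9.06) lay further apart than either SD, as did Zbtb16 (17.9 ± 2.08) and Errfi1 (13.9 ± 1.15). Fkbp5 (11 ± 7.23), Nr3c1 (10.9 ± 1.98) and Cdkn1a (8.58 ± 6.49) differed from each other by less than the larger SD of each pair.

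Some libraries stood apart from their groups, and results that rest on them are given with and without them. On the first principal component of log2 CPM (28% of the variance), CT-CTD 2 and 3 lay at -33.32 and -33.05 and CT-WD 2 and 3 at -39.17 and -47.01, whereas CT-CTD 1 lay at -0.15, CT-WD 1 at 20.26 and the EC-Myc OE libraries between -9.2 and 33.68. The numbers in the library labels split the CT libraries in the same way, since replicate 1 of both diets has neighbouring numbers and the 4 libraries of replicates 2 and 3 have another run of neighbouring numbers. Replicate 1 of each CT group thus lay nearer to EC-Myc OE than the other CT libraries did. OE-CTD 4 and OE-WD 4 lay at -47.62 and -28.86 on the second component (12.6%), with 14.93% and 14.54% mitochondrial counts against 9.659% to 12.76% in the other libraries. No number is shared between the genotypes or, within EC-Myc OE, between the diets, while OE-CTD 1 to 3 share a number that OE-CTD 4 does not have, and all 4 OE-WD libraries share another. What the numbers stand for is not stated, and it cannot be told apart from genotype or from diet in EC-Myc OE. Each library was counted as a replicate. The SEs and p-values below therefore hold only if libraries that share a number are independent of each other, which could not be checked.

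The tissue label was checked against 8 markers of skeletal muscle. All 8 were tested, none was at 0, and Myh4 had the highest CPM, with a mean of 49000. By FPKM Acta1 was above it (29225 against 9389.6 in CT-CTD). The list summed to between 119746 and 173961 CPM per library, and 0 of the 8 genes were altered in any comparison by edgeR at an adjusted or an unadjusted p. Altered means here a log2 fold change beyond 0.585 in size, which is 1.5-fold, and a p-value under 0.05 in edgeR's quasi-likelihood test, adjusted by the Benjamini-Hochberg method over the 15458 genes unless called unadjusted.

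Nr3c1 (ENSMUSG00000024431, chromosome 18) encodes the glucocorticoid receptor. It stood at 59.3, 83.6 and 80.1 CPM in CT-CTD 1 to 3 and at 71.1, 99.3 and 109 CPM in CT-WD 1 to 3. In EC-Myc OE it stood at 64.2, 74.2, 62.4 and 83.4 CPM in OE-CTD 1 to 4 and at 85.7, 73.1, 71.8 and 83.6 CPM in OE-WD 1 to 4. The 4 groups overlapped, and in both CT groups replicate 1 was the lowest. Between OE-CTD and CT-CTD, a contrast that shares no library with OE-WD against CT-WD, the log2 fold change was -0.07 ± 0.151 (SE, edgeR's quasi-likelihood test with Benjamini-Hochberg adjustment, adjusted p = 0.886, from 0.376 to 0.993 over 24 alternatives). Differences in receptor mRNA of about the size of this SE were not detectable with these libraries.

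The genes around the receptor, its chaperones, coregulators, steroid-converting enzymes and exporters, were listed as 17 genes, of which 16 were tested and Hsd11b2 was not. In edgeR's test 0 of the 16 were altered in any of the comparisons, as with DESeq2 (0) and limma (0), and without the filter on low counts 2 were, Hspa1a and Hspa1b, in OE-WD against CT-WD and in CT-WD against CT-CTD, and in the interaction. Without CT-WD 1, 3 were altered between OE-WD and CT-WD (Hspa1a, Hspa1b and Hspa8), and with a replicate block, used although equally numbered libraries of these groups did not deviate together, 2 between OE-CTD and CT-CTD (Hspa1b and Ncoa1). At an unadjusted p, 2 were down between OE-WD and CT-WD, 3 were up between CT-WD and CT-CTD, and 0 passed between OE-CTD and CT-CTD or between OE-WD and OE-CTD. Median log2 fold changes of the list were -0.17, 0.15, -0.02 and 0.02 in that order. In the interaction 2 were down at an unadjusted p. Of all genes at an unadjusted p, 2.42% were down between OE-WD and CT-WD and 2.17% were up between CT-WD and CT-CTD. In the interaction 1.66% of all genes were down. By FPKM the most abundant genes of the list were Hsp90ab1 (547), Hspa8 (177) and Fkbp4 (52.5). The largest differences between OE-WD and CT-WD were those of the heat-shock genes Hspa1a (-2.50 ± 0.723), Hspa1b (-2.36 ± 0.697) and Hsp90aa1 (-0.54 ± 0.236). Hspa1a stood at 66 CPM in CT-WD 3 and between 2.21 and 5.56 CPM in the other 13 libraries, and Hspa1b at 281 CPM in CT-WD 3 against 9.33 to 24.7 CPM elsewhere. A single library thus set both values.

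Fkbp5 (ENSMUSG00000024222, chromosome 17 of GRCm38, 28399094 to 28517527, minus strand) encodes a co-chaperone that lowers the receptor's affinity for hormone and is itself induced through the receptor. In CT-CTD 1 to 3 it stood at 83.8, 39.9 and 165 CPM, and in OE-CTD 1 to 4 at 18, 16.5, 24.2 and 20.1 CPM. Each OE-CTD library was below each CT-CTD library, and the CT-CTD libraries differed among themselves by 4.13-fold, against 1.47-fold in OE-CTD. The group means were 19.7 ± 3.34 CPM (SD, n = 4) in OE-CTD and 96 ± 63.2 CPM (SD, n = 3) in CT-CTD. The log2 fold change was -2.29 ± 0.403 (SE), with an adjusted p of 0.00976 in edgeR's quasi-likelihood test with Benjamini-Hochberg adjustment. The adjusted p was between 6.01e-08 and 0.0654 over 24 alternatives with the labelled group names, and Fkbp5 was altered in 23. The exception was the fit without CT-CTD 3, the highest library, at -1.65 (adjusted p = 0.0654). Alternatives that leave out a CT-WD or OE-WD library bear mainly on the spread shared by all groups, since this contrast holds none of those libraries. Because CT replicates stood apart, the contrast was also computed with CT replicate 1 as the only CT library on each diet, which gave -2.09, and with CT replicates 2 and 3 alone, which gave -2.38. Both settings were chosen after seeing the data.

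On western diet Fkbp5 stood at 44.9, 141 and 130.0 CPM in CT-WD 1 to 3 and at 38.5, 23.5, 22.2 and 28 CPM in OE-WD 1 to 4. The groups did not overlap, but CT-WD 1 lay much closer to OE-WD 1 than to the other CT-WD libraries. The log2 fold change of this contrast, which chose the gene, was -1.91 ± 0.397 as a description. It was -0.68 with CT replicate 1 alone and -2.27 with CT replicates 2 and 3 alone. On control diet the difference was thus large in either subset of CT libraries, and on western diet its size depended on the subset. The difference between both genotype contrasts was 0.38 ± 0.564 on the log2 scale. Between the diets Fkbp5 overlapped in CT (0.13 ± 0.419) and in EC-Myc OE (0.51 ± 0.378).

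**Figure D1:**
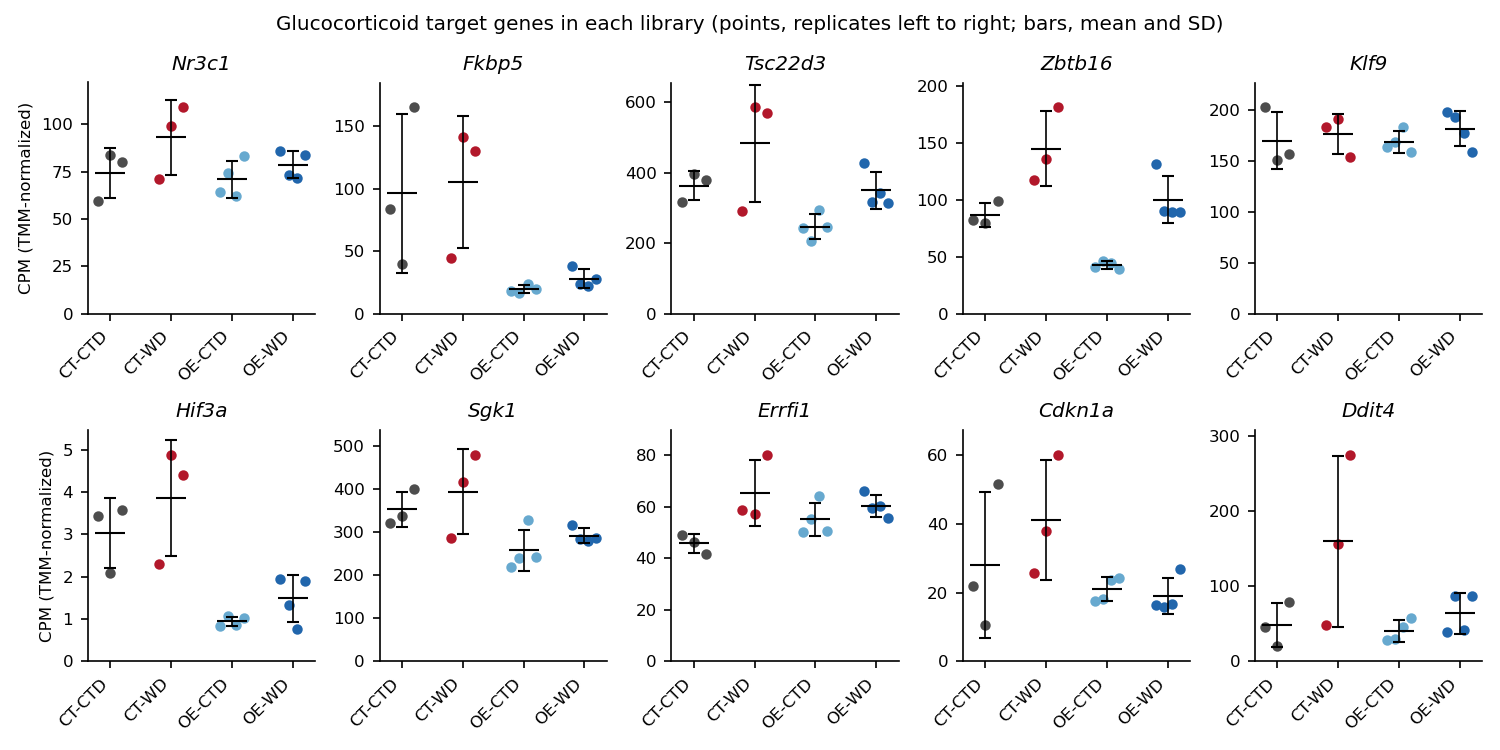
CPM (TMM-normalized) of the 10 genes in each of the 14 libraries, with replicates from left to right in each group and bars for the mean and SD. The 4 OE-CTD libraries lie below every CT-CTD library for Fkbp5, Zbtb16, Tsc22d3 and Hif3a, and CT-WD 1 lies near the EC-Myc OE libraries for Fkbp5 and Ddit4.

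Zbtb16 (ENSMUSG00000066687, chromosome 9, 48654297 to 48836222, minus strand) encodes a zinc-finger transcription factor that is strongly induced by glucocorticoids in many cells. It stood at 82.1, 79.5 and 98.8 CPM in CT-CTD 1 to 3 and at 117, 136 and 181 CPM in CT-WD 1 to 3. In EC-Myc OE it stood at 40.8, 46.6, 44.1 and 39.3 CPM in OE-CTD 1 to 4 and at 131, 90.3, 89.5 and 89.5 CPM in OE-WD 1 to 4. Western diet libraries were above control diet libraries in each genotype, and OE-CTD lay below all other groups, while OE-WD overlapped both CT groups. The order of group means was CT-WD (145 ± 32.6), OE-WD (100.2 ± 20.9), CT-CTD (86.8 ± 10.5) and OE-CTD (42.7 ± 3.25), and OE-WD and CT-CTD did not differ beyond their spread.

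Between OE-WD and OE-CTD, the contrast that chose it, the log2 fold change of Zbtb16 was 1.23 ± 0.146, and leaving out single libraries gave 1.07 to 1.28. Between OE-CTD and CT-CTD it was -1.02 ± 0.154, a description as well, because the OE-CTD libraries also entered the contrast that chose the gene. This value was -0.94 with CT replicate 1 alone and -1.06 with CT replicates 2 and 3 alone. Within CT the diet difference was 0.74 ± 0.166, higher in 3 of 3 CT-WD libraries and also a description, since the CT-WD libraries entered the choice of the glucocorticoid set. It was 0.55 without CT-WD 3 and 0.87 without CT-WD 1, the ends of the range with single libraries left out, 0.52 with CT replicate 1 alone and 0.72 with the replicate number as a block. The difference between both diet responses, which includes the contrast that chose the gene, was 0.49 ± 0.219 on the log2 scale as a description.

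Tsc22d3 encodes a leucine-zipper protein that carries part of the anti-inflammatory action of glucocorticoids. It stood at 316, 395 and 378 CPM in CT-CTD 1 to 3, at 292, 585 and 570.2 CPM in CT-WD 1 to 3, at 243, 205, 293 and 247 CPM in OE-CTD 1 to 4 and at 427, 317, 341 and 315 CPM in OE-WD 1 to 4. OE-CTD lay below both CT-CTD and OE-WD without overlap, and CT-WD 1 was the lowest of the CT libraries. Its log2 fold change between OE-CTD and CT-CTD was -0.55 ± 0.195, under the 1.5-fold limit, with an adjusted p of 0.159 in edgeR's quasi-likelihood test with Benjamini-Hochberg adjustment (0.017 to 0.6 over 24 alternatives). It was altered in 1 alternative, with CT replicates 2 and 3 alone (-0.64, adjusted p = 0.017).

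Hif3a encodes an alpha subunit of the hypoxia-inducible factors. It stood at 3.44, 2.09 and 3.57 CPM in CT-CTD 1 to 3 and at 0.843, 1.06, 0.866 and 1.02 CPM in OE-CTD 1 to 4. On western diet it stood at 2.31, 4.88 and 4.4 CPM in CT-WD 1 to 3 and at 1.95, 1.33, 0.766 and 1.89 CPM in OE-WD 1 to 4. The EC-Myc OE libraries lay below the CT libraries on each diet, with a narrow gap between CT-WD 1 and OE-WD 1. The log2 fold change between OE-CTD and CT-CTD was -1.68 ± 0.33 (adjusted p = 0.0163 in edgeR's quasi-likelihood test with Benjamini-Hochberg adjustment, from 0.000196 to 0.0871 over 24 alternatives). Hif3a was altered in 20 of the 24. The exceptions were the fits without CT-CTD 3 (-1.54, adjusted p = 0.0871) and without OE-CTD 3 (0.0549), with CT replicate 1 alone (-1.86, 0.0859) and with limma on log2(FPKM + 1) (-0.37, 0.0605), a pseudocount above the gene's own level. On western diet the description was -1.37 ± 0.317, and -0.64 with CT replicate 1 alone.

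Klf9, a zinc-finger transcription factor induced by several hormones, ranged from 151 to 203 CPM over the 14 libraries, and its groups overlapped in all 4 contrasts. Its log2 fold change between OE-CTD and CT-CTD was -0.01 ± 0.114 and changed sign with the library left out, from -0.09 without CT-CTD 2 to 0.13 without CT-CTD 1. Klf9 was thus the member with the smallest differences between groups.

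Sgk1 encodes a kinase that acts on ion transport and cell survival. It stood at 322, 337 and 400.4 CPM in CT-CTD 1 to 3, at 287, 417 and 480.3 CPM in CT-WD 1 to 3, at 220.4, 241, 328 and 243 CPM in OE-CTD 1 to 4 and at 318, 285, 280.0 and 287 CPM in OE-WD 1 to 4. OE-CTD 3 reached into the range of CT-CTD, and CT-WD 1 lay within the range of OE-WD. Its log2 fold change was -0.45 ± 0.157 between OE-CTD and CT-CTD (adjusted p = 0.155 in edgeR's quasi-likelihood test with Benjamini-Hochberg adjustment, from 0.0285 to 0.626 over 24 alternatives, under 1.5-fold in the fit to all libraries). Errfi1, an inhibitor of epidermal growth factor receptor signalling, stood at 49.2, 46.3 and 41.8 CPM in CT-CTD 1 to 3 and at 50.2, 55.3, 64.2 and 50.6 CPM in OE-CTD 1 to 4. These groups did not overlap, with a narrow gap between CT-CTD 1 and OE-CTD 1. The difference was 0.27 ± 0.121 on the log2 scale (adjusted p = 0.295 in the same test, from 0.162 to 0.808 over 24 alternatives). In CT it was also higher on western diet without overlap, at 58.9, 57.1 and 80.2 CPM in CT-WD 1 to 3 (0.52 ± 0.129, but 0.34 without CT-WD 3 and 0.26 with CT replicate 1 alone).

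Cdkn1a encodes p21, an inhibitor of cyclin-dependent kinases. It stood at 21.9, 10.5 and 51.7 CPM in CT-CTD 1 to 3 and at 25.7, 37.8 and 60.1 CPM in CT-WD 1 to 3, and ranged from 15.8 to 26.8 CPM in EC-Myc OE. The CT libraries varied 4.92-fold on control diet, so that its log2 fold change between OE-CTD and CT-CTD ran from -0.81 without CT-CTD 2 to 0.37 without CT-CTD 3 (-0.42 ± 0.389 with all libraries). Ddit4 encodes an inhibitor of the growth kinase complex mTORC1. It stood at 45, 20 and 78.5 CPM in CT-CTD 1 to 3, at 47.8, 156 and 275 CPM in CT-WD 1 to 3, at 28.4, 29.1, 46.3 and 58.2 CPM in OE-CTD 1 to 4 and at 39.1, 87.3, 42 and 86.5 CPM in OE-WD 1 to 4. CT-WD 2 and 3 were the highest of the 14 libraries and CT-WD 1 lay among the others. The description of OE-WD against CT-WD was -1.32 ± 0.499 for Ddit4, and 0.42 with CT replicate 1 alone against -1.75 with CT replicates 2 and 3 alone, a change of sign. For Cdkn1a the same values were -1.12 ± 0.387, -0.44 and -1.37.

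As a group, the 10 genes were read against all genes tested in each contrast. Between OE-CTD and CT-CTD, 3 of the 10 were altered by edgeR, all of them down (Fkbp5, Hif3a and Zbtb16, the last not independent of the choice), where 1.91% of all genes were altered. At an unadjusted p it was 3 of 10 beside 7.12%. Without overlap between these groups, 4 members were lower (Fkbp5, Zbtb16, Tsc22d3 and Hif3a) and 1 higher (Errfi1), beside 6.75% of all genes lower and 8.73% higher. The median log2 fold change of the members was -0.44, beside -0.001 for all genes, and 9 of 10 were negative, Klf9 (-0.01) and Nr3c1 (-0.07) by little, where 50.1% of all genes were. Without CT-CTD 3, Cdkn1a (0.37) and Ddit4 (0.31) turned positive. So did Klf9 without CT-CTD 1, OE-CTD 1 (by little, 0.0025) or OE-CTD 4, and Nr3c1 without CT-CTD 2. Without CT-CTD 3 the count was 1 (Zbtb16), and with CT replicate 1 alone it was 1 (Fkbp5). For OE-WD against CT-WD, 1 member was altered (Fkbp5) beside 0.563% of all genes, 4 at an unadjusted p beside 5.74%, 2 were lower without overlap (Fkbp5 and Hif3a) beside 5.54% and 0 higher beside 6.06%, and the median was -0.50. Nothing is read from these counts, since that contrast chose the members. Its count was 7 with CT replicates 2 and 3 alone, or without CT-WD 1. The count was 0 without CT-WD 2, CT-WD 3, any OE-CTD library, or OE-WD 2, 3 or 4. Fkbp5 was altered there in 8 of 24 alternatives with the labelled group names. With CT replicate 1 alone, 6 of the 10 members changed sign (Tsc22d3, Klf9, Sgk1, Errfi1, Ddit4 and Nr3c1).

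For the diets, 1 member was altered between OE-WD and OE-CTD (Zbtb16, which this contrast chose, and 0 without OE-CTD 1 or with EC-Myc OE replicates 1 to 3 alone) beside 0.00647% of all genes, and 1 at an unadjusted p beside 1.37%. Here 2 members were higher without overlap (Zbtb16 and Tsc22d3) beside 1.84% of all genes, and the member median was 0.34. Between CT-WD and CT-CTD, 0 of 10 members were altered by edgeR's test beside 0% of all genes. At an unadjusted p, 2 were altered (Zbtb16 and Ddit4) beside 3.05%, and at an adjusted p DESeq2 called 1 and limma 0. In this contrast 2 members were higher without overlap (Zbtb16 and Errfi1) beside 4.47%. Nr3c1, Cdkn1a and Ddit4 were also higher in each pair of equally numbered CT libraries. This is given without a share of all genes, so nothing is read from it. With the replicate block 0 members were altered. All 10 log2 fold changes were positive, where 48.5% of all genes were negative, and their median was 0.38 beside 0.007. With CT replicate 1 alone 5 of the 10 were negative (Fkbp5, Hif3a, Sgk1, Klf9 and Tsc22d3), and leaving out single libraries turned Fkbp5 (without CT-CTD 2, CT-WD 2 or CT-WD 3), Klf9 (without CT-CTD 2, CT-CTD 3 or CT-WD 2) and Sgk1 (without CT-WD 3). Ddit4 went from 1.73 to 1.08 without CT-WD 3 and to 0.08 with CT replicate 1 alone. The CT-WD libraries also entered OE-WD against CT-WD, the contrast that chose the members. Nothing is therefore read from the counts, signs or median of the members between CT-WD and CT-CTD. In the diet by genotype interaction edgeR called 0 members, 0 at an unadjusted p, and DESeq2 and limma 0, beside 0% and 2.7% of all genes.

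**Figure D2:**
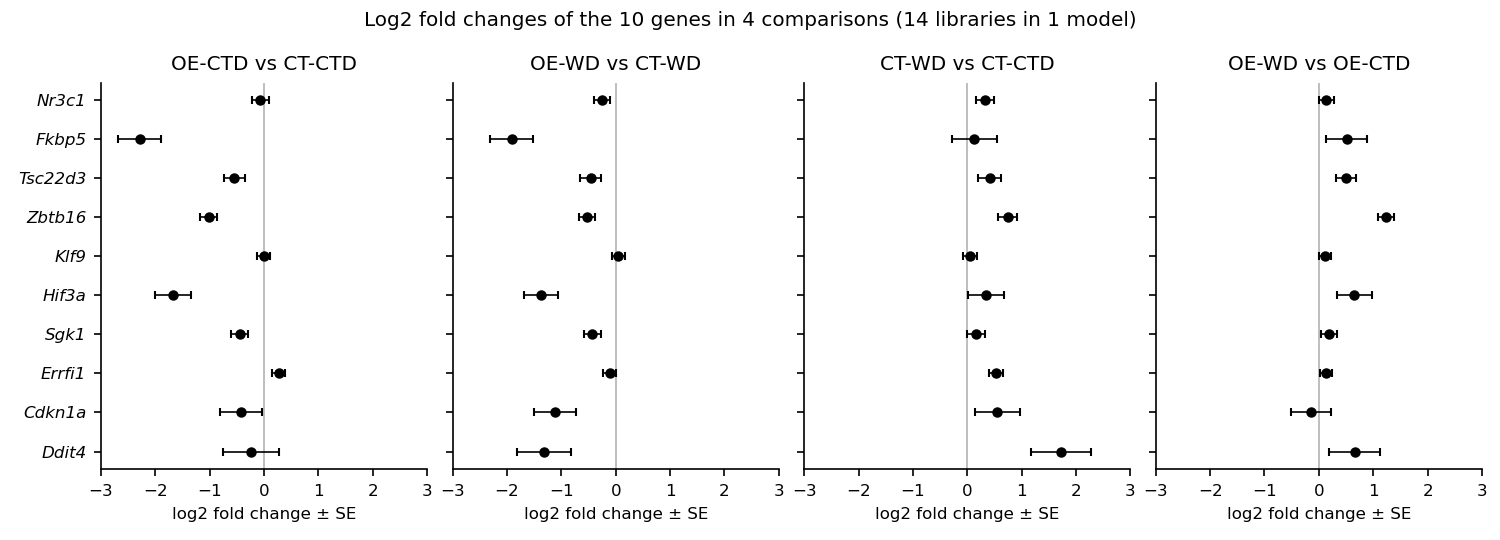
Log2 fold change of the 10 genes in the 4 contrasts, with bars for the SE from edgeR. Fkbp5 and Hif3a lie lowest in both contrasts of EC-Myc OE with CT (-2.29 and -1.68 on control diet), and Zbtb16 lies highest between OE-WD and OE-CTD (1.23).

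A longer list of 30 other genes known to respond to glucocorticoids held 29 tested genes (Mt2 was not tested). Its genes summed to 6028, 4504 and 4969 CPM in CT-CTD 1 to 3, to 6032, 8464 and 8392 CPM in CT-WD 1 to 3, to 3689.6, 3449, 3592 and 3372 CPM in OE-CTD 1 to 4 and to 5509.8, 3376, 4071 and 3539 CPM in OE-WD 1 to 4. OE-CTD lay below all CT libraries, and OE-WD 1 reached into the CT-CTD range. By FPKM, Pdk4 (676), Trim63 (143) and Glul (120.0) were the most abundant, and Pdk4 therefore weighs most in the sum. The list held 2 genes altered between OE-CTD and CT-CTD, both down, and 1 up and 4 down at an unadjusted p, beside 1.91% and 7.12% of all genes, with a median of -0.21. They were Fbxo32, a ubiquitin ligase of muscle protein breakdown (-1.04, adjusted p = 0.0345 in edgeR's test), and Mstn, an inhibitor of muscle growth (-0.87, adjusted p = 0.00575). The count over the alternatives included 1 with CT replicate 1 alone, 8 (4 up, 4 down) with CT replicates 2 and 3 alone and 3 with DESeq2, settings with 69, 550 and 509 of all genes altered, and 1 to 3 with single libraries left out (1 without CT-CTD 3, OE-CTD 2, OE-CTD 3 or OE-CTD 4). Fbxo32 stood at 632, 629 and 469 CPM in CT-CTD 1 to 3 and at 303, 288, 241 and 293 CPM in OE-CTD 1 to 4, without overlap.

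Between OE-WD and CT-WD 5 genes of the list were down and 0 up, 15 down at an unadjusted p, beside 0.563% and 5.74% of all genes, with a median of -0.61, given as a description beside the members chosen from that contrast. These were the metallothionein Mt1 (-1.21), the fuel-switch kinase Pdk4 (-1.08), the ubiquitin ligase Trim63 (-1.43), the translation inhibitor Eif4ebp1 (-0.69) and the lipid phosphatase Lpin1 (-0.71). Trim63 stood at 407, 948 and 863 CPM in CT-WD 1 to 3 and at 398, 218, 235 and 245 CPM in OE-WD 1 to 4. The gap between CT-WD 1 and OE-WD 1 was small, as for Fkbp5. With CT replicate 1 alone the count was 0 (6 of all genes), and with CT replicates 2 and 3 alone 13, all down (997 of all genes). Single libraries moved it from 0 (without CT-WD 2, CT-WD 3, OE-WD 2 or OE-WD 3) to 12 (without CT-WD 1, with 905 of all genes). In CT-WD against CT-CTD edgeR called 0 genes of the list, DESeq2 2 and limma 0, and the list's median was 0.47. At an unadjusted p 9 of its genes were up, beside 2.17% of all genes. This is a description too, since the CT-WD libraries also entered the contrast that chose the members. In OE-WD against OE-CTD edgeR called 0 genes, also 0 at an unadjusted p, and DESeq2 and limma 0 each, with a median of 0.12.

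**Figure D3:**
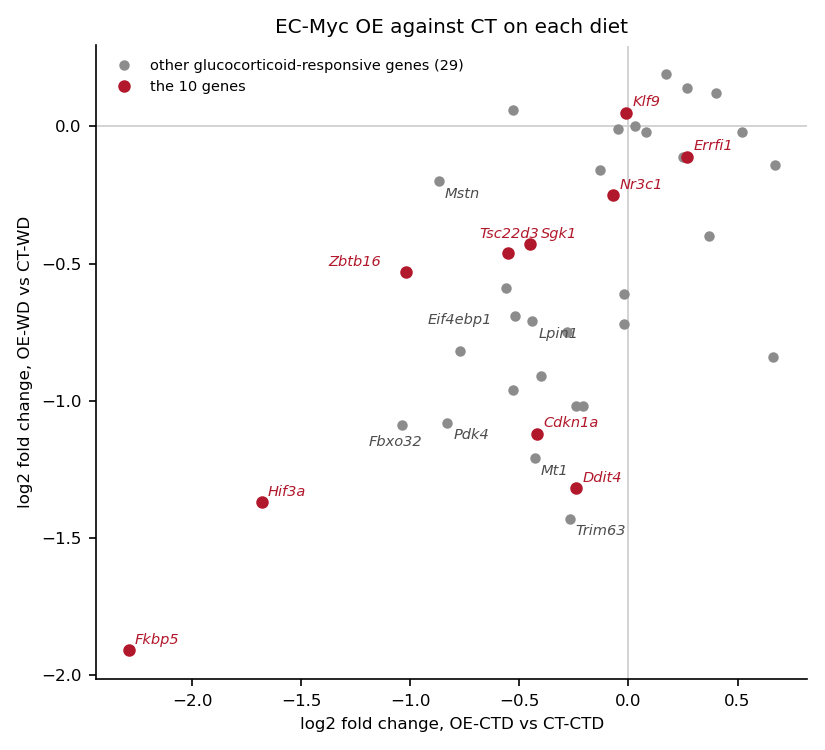
Log2 fold change of EC-Myc OE against CT on control diet (x axis) and on western diet (y axis) for the 10 genes and 29 other glucocorticoid-responsive genes. Fkbp5 lies farthest to the lower left (-2.29 and -1.91), while Ddit4 and Trim63 are low mainly on western diet.

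Several other gene lists moved in the contrasts in which the members did, and their part in the result was not tested. Of 10 clock genes of the Dbp phase, all tested, 4 were up between OE-WD and CT-WD (Dbp, Hlf, Nr1d1 and Ciart, median 0.42). Between OE-CTD and CT-CTD 2 were up (Nr1d1 and Ciart, median 0.08). Of all genes, 0.563% and 1.91% were altered in these contrasts. The Dbp phase list summed to 845, 854 and 875 CPM in CT-CTD 1 to 3, to 756, 807 and 662 CPM in CT-WD 1 to 3, to between 949 and 1079 CPM in OE-CTD and to between 944 and 1102 CPM in OE-WD, so that EC-Myc OE lay above CT. Tef had the highest CPM in the list, 338, and Per1 was also in the list of other glucocorticoid-responsive genes. The labels give no time of day of tissue collection.

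Of 10 immediate-early genes, which respond within minutes to many stimuli, 2 were up between OE-CTD and CT-CTD (Junb and Ier2, median 1.04) and 7 at an unadjusted p. Between CT-WD and CT-CTD 0 were altered and 8 were up at an unadjusted p (median 1.31), and in the interaction 0 were altered and 7 were down at an unadjusted p. Of all genes, 1.91% were altered and 4.94% were up at an unadjusted p between OE-CTD and CT-CTD. At an unadjusted p, 2.17% were up between CT-WD and CT-CTD and 1.66% were down in the interaction. Nr4a1 had the highest CPM among the immediate-early genes, 244. The list summed to 334, 388 and 434 CPM in CT-CTD 1 to 3, to 619.7, 529 and 1057 CPM in CT-WD 1 to 3, to between 469.9 and 735 CPM in OE-CTD and to between 463 and 598 CPM in OE-WD. CT-CTD was the lowest group without overlap. Their part in the result was not tested.

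Cell type markers were counted the same way, since in bulk muscle fewer cells of a type and less RNA per cell cannot be told apart. Of 8 macrophage markers, led by Lyz2 at 28.1 CPM, 7 were up at an unadjusted p between OE-CTD and CT-CTD, beside 4.94% of all genes. At an adjusted p 0 of these markers were up, and their median was 0.87. They summed to 78.5, 47.1 and 41.7 CPM in CT-CTD 1 to 3, to 126, 62.3 and 52.9 CPM in CT-WD 1 to 3, to between 80.5 and 127 CPM in OE-CTD and to between 75.3 and 125 CPM in OE-WD. Of 5 tendon markers, led by Fmod at 192 CPM, 3 were up at an unadjusted p between OE-CTD and CT-CTD, beside 4.94% of all genes. Between OE-WD and CT-WD 1 tendon marker was up in this way, beside 3.32% of all genes. These markers summed to 223, 98.9 and 158 CPM in CT-CTD 1 to 3, to 443, 81.6 and 105 CPM in CT-WD 1 to 3, to between 289 and 559 CPM in OE-CTD and to between 286 and 776 CPM in OE-WD. In both lists replicate 1 of each CT group was the highest of its group, the opposite of Fkbp5 in CT-WD. Their part in the result was not tested.

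Endothelial markers, the cells in which MYC was driven, were 8 genes led by Cdh5 at 92.9 CPM, and 0 were altered in any contrast, also 0 at an unadjusted p. Together they summed to 384, 378 and 405 CPM in CT-CTD 1 to 3, to 447, 401 and 433 CPM in CT-WD 1 to 3, to between 434 and 487 CPM in OE-CTD and to between 484 and 494 CPM in OE-WD, higher in EC-Myc OE on each diet without overlap. Markers of slow fibres (8, led by Atp2a2 at 1580 CPM), fast fibres (8, led by Myh4 and partly the same genes as the skeletal muscle list), adipocytes (7, led by Fabp4 at 216 CPM), blood (4 of 5 tested, led by Hba-a1 at 138 CPM) and epidermis (5 of 6, led by Krt5 at 10.1 CPM) had 0 altered genes in each contrast. At an unadjusted p their counts between OE-CTD and CT-CTD were 0, 1, 2, 0 and 1, beside 7.12% of all genes. No listed marker was at 0 in all libraries, and the lowest were Dsg3 (0.103 CPM), Hba-a2 (0.164 CPM) and Tnnc2 (0.684 CPM).

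Within groups the members tended to deviate from the group mean together. Of the 45 pairs of members, 39 had a positive Pearson correlation of these deviations over the 14 libraries and 18 a correlation over 0.5, with a median of 0.437. This is a description, given without the same value for other genes, and the points share their normalization and the 4 group means. The highest was that of Cdkn1a and Ddit4 (r = 0.836, Spearman's rho 0.811, and 0.84 without the 2 libraries farthest from the median, CT-CTD 2 and 3). Fkbp5 and Zbtb16 had r = 0.659 (rho 0.71, and 0.586 without CT-WD 1 and CT-CTD 2), and Tsc22d3 and Sgk1 had r = 0.828 (rho 0.727, and 0.74 without CT-WD 1 and 2). By library, 9 of the 10 members were below the group mean in CT-WD 1, 10 in OE-CTD 1 and 9 in OE-WD 3, and 9 were above it in CT-WD 3 and 8 each in CT-CTD 3, OE-CTD 3 and OE-WD 1. A library was thus often high or low for most of the members at once. Whether it was so for other genes as well was not tested.

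Among 9078 tested genes with a mean of at least 5 CPM, the 5 most like Fkbp5 over the 14 libraries were Timp4 (Pearson's r = 0.955), Sra1 (0.954), Odf3l2 (0.936), Tmpo (0.92) and Ankrd9 (0.918). With group means removed these correlations with Fkbp5 were 0.86, 0.823, 0.782, 0.795 and 0.861. The 5 most like Zbtb16 were Adarb1 (0.898), Cntfr (0.887), Fnbp1l (0.875), Srsf11 (0.869) and Eif3a (0.867), and with group means removed 0.571, 0.572, 0.764, 0.617 and 0.53. Likeness to Fkbp5 was thus kept more within groups than likeness to Zbtb16. The genes were picked as the highest of many, so these values describe a pattern and carry no test.

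Promoter sequences are shown because the members were grouped as targets of a DNA-binding receptor. RefSeq windows on GRCm38.p6, from 250 bases before to 50 after each start, were found for 8 of the 10 members (17 windows) in the table used, which did not hold Zbtb16 or Nr3c1. Both strands were searched for the palindrome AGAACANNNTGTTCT of the receptor, for its hexamer AGAACA, which lies inside the palindrome, and for the E-box CACGTG, which MYC and clock factors bind. The palindrome was in 3 of 32851 windows (0.00913%), 1 of them a window of Sgk1. AGAACA was in 19.0% of all windows and in 4 of the 17, of Sgk1 and Tsc22d3, and CACGTG was in 7.15% and in 2 of the 17, of Fkbp5 and Sgk1, where in Sgk1 it overlaps a hexamer. In the sequences, printed 5′ to 3′ on the strand of the gene, capitals mark the palindrome in Sgk1 (chr10:21993679-21993738, plus strand, ending 174 bases before the start), the hexamer on the opposite strand in Tsc22d3 (chrX:140600679-140600729, minus strand, 179 bases before) and the E-box in Fkbp5 (chr17:28486290-28486340, minus strand, 163 bases before). A match is a description of letters, and a window without one says nothing about the factor.
Sgk1: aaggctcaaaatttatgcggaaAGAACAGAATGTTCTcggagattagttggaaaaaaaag
Tsc22d3: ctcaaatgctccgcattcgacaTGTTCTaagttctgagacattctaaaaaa
Fkbp5: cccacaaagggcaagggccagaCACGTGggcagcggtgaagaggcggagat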

How the data were processed

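The authors deposited counts, the reads assigned to each Ensembl gene in each of the 14 libraries without normalization. The authors also deposited FPKM, counts per gene length and library total with a scaling factor per library. The submitters name HISAT2 2.0.5, featureCounts 1.5.0-p3 and mm10, and no strand setting. Members and gene lists were chosen with earlier results of these data known. Of the planned lists, 1 is not reported here. Named genes are all 10 members, the altered genes of the receptor machinery list and of the list of other glucocorticoid-responsive genes, the 3 in each with the largest change between OE-WD and CT-WD and the 3 with the highest FPKM, and the 5 genes most like Fkbp5 and Zbtb16, leaving out predicted and Riken symbols. The gene with the highest CPM in each other list is also named, and any further gene was named after its value was seen.

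Counts were fitted with edgeR 4.0.16 in R 4.3.3 (TMM, filterByExpr, quasi-likelihood test, 1 mean for each of 4 groups), with Benjamini-Hochberg adjustment over all genes of a contrast. Log2 CPM used a prior count of 2. The biological coefficient of variation was 17%, and 21833839 to 28519159 reads were counted per library. Counting error matters most for Hif3a. Alternatives were DESeq2 1.42.0, limma 3.58.1 on log2(FPKM + 1) and log2(FPKM + 0.1), no filter on low counts, a fit to the groups compared alone, the replicate number as a block, CT-WD and OE-CTD with their names exchanged, and each library left out. Subsets of CT and of EC-Myc OE replicates and robust estimation in edgeR were added after seeing the data.

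A pairing by replicate number was checked through correlations, over genes, of the deviations of equally numbered libraries from their group means. They were 0.385, 0.123 and 0.203 between CT-WD and CT-CTD, so the CT numbers were taken to pair, from this check alone. They were 0.0711, 0.138, 0.142 and 0.338 between OE-WD and OE-CTD, -0.23, -0.158 and -0.0647 between OE-WD and CT-WD, and 0.0465, -0.113 and -0.122 between OE-CTD and CT-CTD, so the block has no such basis between the genotypes. With the block, 1 gene in place of 0 was altered between CT-WD and CT-CTD, Slc25a25, named after its value was seen, and 0 members. Gene positions matched GENCODE M21 on GRCm38 for 98.3% of 54409 shared identifiers and for 8 of the 10 members. Promoter sequences came from RefSeq. Reads were not analysed.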

Additional observations from a re-analysis of the deposited data

Results flagged for a closer look

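In the groups of 4 libraries, the level of each member was checked for a library far from the other 3. Zbtb16 CPM in OE-WD 1 was 131, and its gap to the nearest library was 0.981 of the group's range. Without this library the Zbtb16 difference between OE-WD and OE-CTD was 1.07 on the log2 scale. Cdkn1a CPM in OE-WD 4 was 26.8, with a gap of 0.923 of the range, in a library that also had a high mitochondrial share (14.54%). Of 20 groups checked, 2 exceeded the critical value of 0.829, which chance does in about 1 in 20 groups.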

How the results depend on the processing

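Between OE-CTD and CT-CTD, Fkbp5, Zbtb16 and Hif3a were lower in all 24 alternatives that kept the group names, and altered in 23, 23 and 20. For Zbtb16 this is a description, since OE-CTD entered the contrast that chose it. Some of the 24 leave out a CT-WD or OE-WD library, which is not in this contrast. Those alternatives bear mainly on the shared estimate of the spread and are no check of the direction. Depth limited Hif3a most, with 18 to 101 counts per library. The counts that follow are of members altered and of all genes altered, and the cause was not tested where a value moved. With DESeq2 they were 2 and 309 for OE-WD against CT-WD, 1 and 31 for CT-WD against CT-CTD, 509 genes for OE-CTD against CT-CTD and 3 interaction genes. Without the filter on low counts they were 4 and 401, 2 and 88, 570 genes and 29, with 5 genes for OE-WD against OE-CTD. Limma on log2(FPKM + 1) gave 0 and 30 for OE-WD against CT-WD and 117 genes for OE-CTD against CT-CTD, and on log2(FPKM + 0.1) 0 and 30, and 196. Fitting only the groups compared gave 0 and 4 for OE-WD against CT-WD. Robust estimation gave 0 members there.

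With the replicate block, although equally numbered CT and EC-Myc OE libraries did not deviate together, OE-WD against CT-WD gave 0 members and 0 genes, OE-WD against OE-CTD 15 genes, CT-WD against CT-CTD 1, OE-CTD against CT-CTD 522 and the interaction 1 (Mylk4, named after its value was seen), and Klf9 reversed to 0.0287 between OE-CTD and CT-CTD.

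With CT replicate 1 alone, members and genes were 0 and 6 for OE-WD against CT-WD and 1 and 69 for OE-CTD against CT-CTD, with 1 gene each for CT-WD against CT-CTD and the interaction. Between OE-WD and CT-WD Tsc22d3 (0.26), Klf9 (-0.01), Sgk1 (0.03), Errfi1 (0.04), Ddit4 (0.42) and Nr3c1 (0.15) reversed. Between CT-WD and CT-CTD Fkbp5 (-0.90), Tsc22d3 (-0.12), Klf9 (-0.14), Sgk1 (-0.17) and Hif3a (-0.57) reversed, as did Nr3c1 between OE-CTD and CT-CTD (0.26) and Ddit4 in the interaction (0.58). With CT replicates 2 and 3 alone they were 7 and 997 for OE-WD against CT-WD, 550 genes for OE-CTD against CT-CTD, 31 for CT-WD against CT-CTD and 1 for the interaction. Klf9 between OE-CTD and CT-CTD (0.13) and Tsc22d3 (-0.076), Klf9 (-0.0517), Sgk1 (-0.10) and Hif3a (-0.0606) in the interaction reversed. With EC-Myc OE replicates 1 to 3 alone they were 0 and 4 for OE-WD against CT-WD and 0 and 0 for OE-WD against OE-CTD, and Klf9 between OE-CTD and CT-CTD (0.0154) and Sgk1 in the interaction (-0.0012) reversed. On the FPKM scales Klf9 between OE-CTD and CT-CTD was 0.0016 and 0.0018, and Hif3a in the interaction was -0.0175 with a pseudocount of 1. A group left with 1 library was assumed to vary like the others.

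Exchanging the names of CT-WD and OE-CTD is a renaming, which would make the group sizes match those the study gives. It gave 1 gene for OE-WD against CT-WD, 87 for OE-WD against OE-CTD, 3 members and 295 genes for CT-WD against CT-CTD, and 0 and 0 for OE-CTD against CT-CTD. Fkbp5 became 0.51 and Zbtb16 1.23 between OE-WD and CT-WD, and the reversals there included Tsc22d3 (0.50), Sgk1 (0.18), Errfi1 (0.13), Ddit4 (0.66), Nr3c1 (0.14) and Hif3a (0.65). Between OE-WD and OE-CTD it gave Fkbp5 -1.91, Zbtb16 -0.53, Tsc22d3 -0.46, Sgk1 -0.43, Errfi1 -0.11, Ddit4 -1.32, Nr3c1 -0.25 and Hif3a -1.37, all reversed, with Fkbp5 in place of Zbtb16 as the 1 member altered. Between CT-WD and CT-CTD it gave Fkbp5 -2.29, Zbtb16 -1.02, Tsc22d3 -0.55, Klf9 -0.0111, Sgk1 -0.45, Cdkn1a -0.42, Ddit4 -0.24, Nr3c1 -0.0655 and Hif3a -1.68. Between OE-CTD and CT-CTD it gave Fkbp5 0.13, Zbtb16 0.74, Tsc22d3 0.41, Klf9 0.0479, Sgk1 0.16, Cdkn1a 0.55, Ddit4 1.73, Nr3c1 0.33 and Hif3a 0.34.

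With 1 library left out, members altered were 0 to 7 for OE-WD against CT-WD (7 without CT-WD 1), 0 to 1 for OE-WD against OE-CTD (0 without OE-CTD 1), 0 to 1 for CT-WD against CT-CTD and 1 to 3 for OE-CTD against CT-CTD (1 without CT-CTD 3). All genes altered were 4 to 905, 0 to 2, 0 to 41 and 64 to 440 in that order, and 0 to 1 for the interaction. Between OE-WD and CT-WD, without CT-WD 3, Klf9 (-0.04) and Errfi1 (0.06) reversed. Between OE-CTD and CT-CTD Klf9 ran from -0.0901 to 0.13, Nr3c1 from -0.21 to 0.0277, Cdkn1a from -0.81 to 0.37 and Ddit4 from -0.61 to 0.31. Between CT-WD and CT-CTD Fkbp5 ran from -0.24 to 0.77, Klf9 from -0.0314 to 0.18 and Sgk1 from -0.0057 to 0.35. In the interaction Fkbp5 ran from -0.25 to 0.75, Tsc22d3 from -0.17 to 0.25, Klf9 from -0.0819 to 0.14 and Sgk1 from -0.16 to 0.19.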
